A study of Mus musculus with 72 samples.

Results

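The SR splicing factors were followed through the subcellular fractions of mouse embryonic stem cells as 10 genes taken by symbol, Srsf1, Srsf2, Srsf3, Srsf4, Srsf5, Srsf6, Srsf7, Srsf9, Srsf10 and Srsf11, out of 51826 genes in the count files. No measured value entered the rule that chose them, but earlier results of these data were known when they were chosen. Cells of the E14TG2a line, grown in ES medium with 2i and LIF, were given 4-thiouridine (4sU), a uridine analog that is built into RNA made during the labeling time and appears as a T-to-C (T2C) conversion after alkylation. Every group carried 4sU, and labeling times ran over 15, 20, 30, 40, 60 and 120 min. The labels give 500 µM of 4sU under 60 min and 100 µM at 60 and 120 min. The methods give 500 µM for part of the 60 min samples, and imply it for replicates 3 and 4 at 120 min. Independently passaged replicates were split into nucleus, cytosol, membrane fraction and whole cells, with 18 poly(A)-selected libraries of each. Replicates 1 and 2 were sampled at 15, 20 and 30 min, replicates 3 and 4 at 20, 40, 60 and 120 min, and replicates 5 and 6 at 60 and 120 min. The 120 min libraries of replicates 3 and 4 were set aside by the authors, so that 16 libraries per fraction were used here except where the 120 min libraries are named.

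SR proteins bind short motifs in exons through RNA recognition motifs and recruit the spliceosome through a domain rich in arginine and serine, which SR protein kinases phosphorylate. Several of them travel with spliced mRNA to the cytoplasm and hand it to the export machinery. The family limits its own amount: many SR genes hold a poison exon, a conserved cassette that brings in a premature stop codon, so that the transcript with the exon is removed by nonsense-mediated decay, and some hold introns that are kept in nuclear polyadenylated RNA. A part of an SR transcript population can therefore be polyadenylated without coding for the protein.

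In the 64 libraries used, gene counts summed to between 15382522 and 52975732 reads, the deepest library being the nuclear 20 min library of replicate 4. The summed level of 9 stem cell genes lay between 4903 and 9499 CPM (counts scaled to a library total of 1e6) in every library, and those of endoderm, primed or mesoderm and fibroblast genes at 17.97 CPM or less. In the median library, 4 nuclear noncoding RNAs summed to 1710 CPM in the nucleus and 366 CPM in the cytosol. For 5 mRNAs of endoplasmic reticulum, lysosome or cell surface proteins the median sums were 7135 CPM in the membrane fraction and 465 CPM in the cytosol. In the nucleus these 5 mRNAs summed to 2311 CPM. The sum of 3 mitochondrial transcripts was 6764 CPM in the nucleus and 991 CPM in the cytosol. The paper names a slight mitochondrial contamination of the nuclear fraction. Conversion rates at 60 min in the cytosol were 5.83% and 7.57% in replicates 3 and 4 but 2.38% and 2.58% in replicates 5 and 6, although the labels give all of them the same dose. Results at 60 min are given for each replicate for that reason. Across all genes, introns held 38.5 T counts per 100 exon T counts in the median nuclear library and 9.002 in the cytosolic one, with 66.7 in the nuclear 20 min library of replicate 3, the highest of all. All 10 SR genes passed the filters of every test.

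Some exon sequences are shown because the results on single exons below turn on them. The first is the part of the Srsf6 poison exon that is read by the ribosome, up to and including its stop codon, which is in capitals. It lies at chr2:162932815-162932966 of GRCm38, plus strand, in an exon of 165 bases that ends at 162932979 (ENSMUSE00000821819), the exon numbered 3 in ENSMUST00000126163.2, which Gencode vM21 annotates as protein coding with its end at this stop. A Srsf6 transcript annotated as a target of nonsense-mediated decay, ENSMUST00000017065.14, has the same stop codon. The others are coding exons with the largest shift away from the nucleus within their genes, the exon numbered 2 of Srsf10 at chr4:135858305-135858409 on the plus strand, and an exon of Srsf11 at chr3:158026725-158026858 on the minus strand. Sequences were read from the Gencode vM21 transcripts, 5′ to 3′.
Srsf6 poison exon: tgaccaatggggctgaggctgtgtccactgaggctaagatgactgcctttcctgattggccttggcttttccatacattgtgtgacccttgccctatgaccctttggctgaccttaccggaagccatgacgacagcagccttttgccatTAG
Srsf10 exon 2: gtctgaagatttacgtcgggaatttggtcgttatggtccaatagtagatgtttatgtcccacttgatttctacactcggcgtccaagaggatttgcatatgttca
Srsf11 exon: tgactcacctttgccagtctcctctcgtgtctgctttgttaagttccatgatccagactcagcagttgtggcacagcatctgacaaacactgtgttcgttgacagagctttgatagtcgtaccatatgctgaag

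SR mRNAs were abundant in whole cells and spanned a wide range of levels. On the RPKM scale (CPM per kb of exon), the median over 16 whole-cell libraries was highest for Srsf2 (chr11:116849901-116853094, minus strand), the factor also known as SC35, at 329. Srsf5 (chr12:80945504-80950507, plus strand) followed at 244 and Srsf3 (chr17:29032628-29043373, plus strand), the smallest SR protein and an export adaptor, at 170. Srsf7 (chr17:80200080-80207307, minus strand), its close relative with a zinc knuckle, stood at 146 and Srsf6 (chr2:162931528-162937121, plus strand) at 142. Srsf1 (chr11:88047373-88053755, plus strand), the founding member of the family, stood at 103, Srsf10 (chr4:135855747-135869908, plus strand), a general splicing repressor when dephosphorylated, at 84.8, and Srsf11 (chr3:158010473-158036639, minus strand), a more distant member of the family, at 76.9. The lowest levels were those of Srsf9 (chr5:115327177-115333080, plus strand), the nearest relative of Srsf1, at 57.7 and of Srsf4 (chr4:131873617-131901706, plus strand), a relative of Srsf5 and Srsf6, at 44.0. The ranges over libraries of each pair of neighbours in this order overlapped, so that only the wider steps of the order exceed the spread between libraries. In 7 of the 10 genes the lowest whole-cell value came from the 60 min library of replicate 5.

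**Figure D1:**
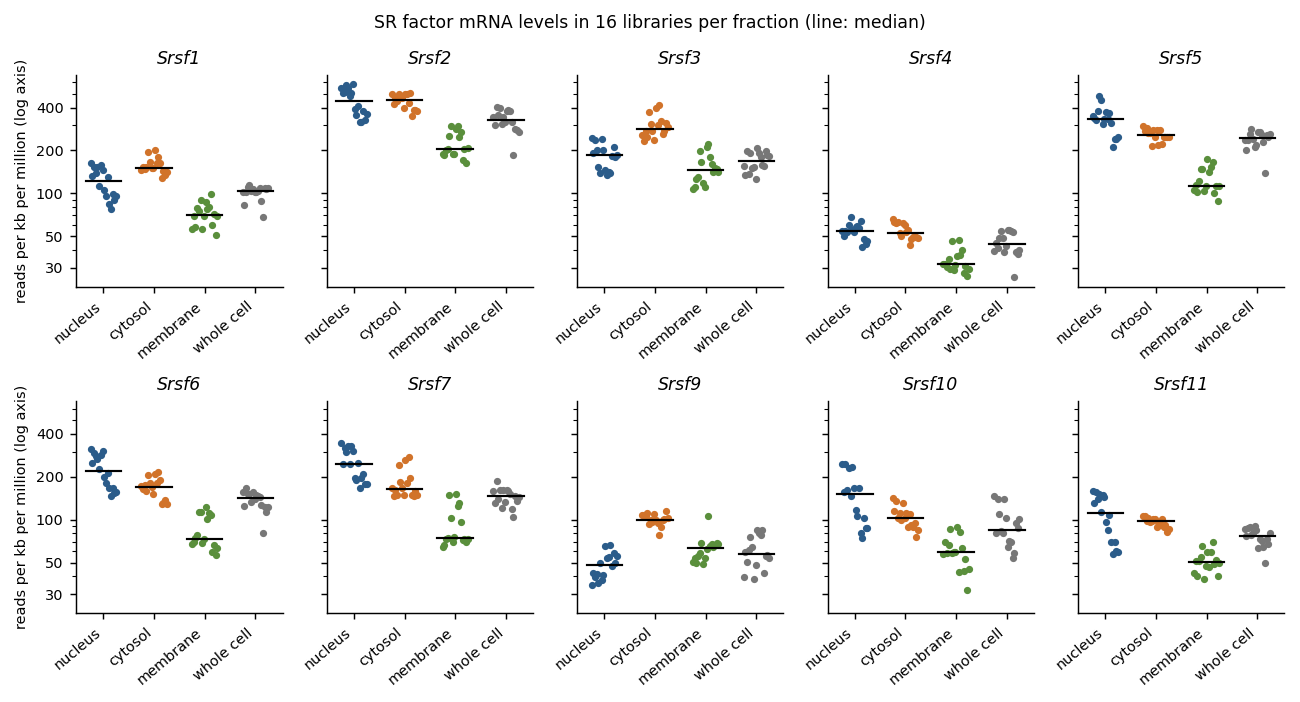
Levels of the 10 SR mRNAs (RPKM, log axis) in the nucleus, cytosol, membrane fraction and whole cells, with a point per library and a line at the median of 16 libraries. Srsf9 is lower in every nuclear library than in any cytosolic one, and the membrane medians lie below the cytosolic ones for all genes.

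Between nucleus and cytosol, Srsf9 and Srsf3 mRNAs were lower in the nucleus and no SR mRNA was called higher, although Srsf7 was without replicate 3. Srsf9 ranged from 34.7 over a median of 48.3 to 66.6 RPKM in the nucleus and from 77.9 over 100.0 to 116 in the cytosol. The fractions did not overlap for Srsf9. Counts were then summed over the labeling times of a replicate (n = 6 per fraction), and the edgeR quasi-likelihood test gave a log2 fold change of -1.14 ± 0.11 (SE, adjusted p = 9.5e-08). For Srsf3 the libraries ranged from 134 over 185 to 243 in the nucleus and from 233 over 283 to 416 in the cytosol. These ranges met only at their ends, and the log2 fold change was -0.78 ± 0.19 (1.72-fold lower, adjusted p = 0.0012). A gene was called where its adjusted p was under 0.05 and its log2 fold change exceeded 0.5 in either direction.

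The other 8 SR mRNAs did not pass. Srsf1 missed on size alone at -0.48 ± 0.17 (adjusted p = 0.022) and was called lower under 8 of 13 alternatives. Srsf10, Srsf7, Srsf6 and Srsf5 had positive values of 0.42, 0.37, 0.32 and 0.25 with adjusted p between 0.14 and 0.20. In the 20 min libraries alone (replicates 1 to 4) these 4 genes were called higher in the nucleus, with log2 fold changes of 0.75, 0.62, 0.51 and 0.61, beside Srsf9 and Srsf3 lower. Of all 18497 genes tested, 37.5% were called higher and 18.9% lower, with a median log2 fold change of 0.25 against -0.002 for the 10 SR genes. The SR genes called lower (2 of 10) were thus about as frequent as among all genes, while 0 of 10 were called higher, by edgeR or by DESeq2. At an unadjusted p under 0.05, 3 of 10 SR genes passed in edgeR. Without replicate 4, whose deep nuclear library carries much of its sum, the split over all genes moved to 5153 higher and 4797 lower with a median of -0.03, and 3 SR genes were called lower. Without replicate 3 Srsf7 was called higher at 0.57 (adjusted p = 0.0086, 0.37 with all replicates). A difference between fractions is one of shares of each fraction's polyadenylated RNA, not of molecules per cell.

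The membrane fraction held less SR mRNA than the cytosol. In the summed counts 7 of 10 genes were called lower in the membrane fraction and none higher, where 9.12% of all 18497 genes were called lower and 21.1% higher. The log2 fold changes were -0.86 ± 0.18 for Srsf1, -0.78 ± 0.16 for Srsf5, -0.73 ± 0.21 for Srsf6, -0.72 ± 0.16 for Srsf2, -0.72 ± 0.19 for Srsf3, -0.72 ± 0.22 for Srsf7 and -0.61 ± 0.19 for Srsf11. Srsf4 (-0.41), Srsf9 (-0.39) and Srsf10 (-0.51) were not called. The median over the 10 genes was -0.72 against -0.16 over all genes. Srsf1 ranged from 50.7 over 70.4 to 99.0 RPKM in the membrane fraction and from 128 over 152 to 201 in the cytosol, with no overlap. In the median membrane library 3 mitochondrial transcripts summed to 86101 CPM, and to 991 CPM in the cytosolic one, and their part in these levels was not tested. With the replicate as a block Srsf10 was called as well (8 of 10). In the 20 min libraries alone the calls of Srsf3 (-0.67, adjusted p = 0.057) and Srsf7 (-0.60, adjusted p = 0.10) were lost and Srsf9 was called (-0.52), and without replicate 4 the call of Srsf11 was lost (-0.59, adjusted p = 0.052).

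The share of new RNA tells how fast labeled transcripts replace the old ones in a fraction. It is the T2C count divided by the T count and by the conversion rate of the library, and it can pass 100%. At 20 min, with 4 replicates, new RNA made up 18.9% ± 5.90 of exonic Srsf2 RNA in the nucleus (SD, n = 4) and 3.25% ± 0.768 in the cytosol. For Srsf3 the nuclear values were 12.5%, 13.1%, 29.0% and 18.7% and the cytosolic ones 2.31%, 2.25%, 2.26% and 2.09%. Every nuclear library of Srsf3 lay above every cytosolic one, and replicate 3 was the highest nuclear value for 9 of the 10 genes. The log2 ratio of nuclear to cytosolic share of Srsf3, 3.04 ± 0.33 (adjusted p = 5.0e-17), was the highest in the family. Such ratios rest on low cytosolic shares, from which no background of sequencing errors was subtracted. The part of that background was not tested.

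All 10 SR genes had a higher new share in the nucleus than in the cytosol at 20 min, where 55.9% of 12377 genes were called higher. After Srsf3 came Srsf2 (2.54), Srsf7 (2.51), Srsf1 (2.46), Srsf6 (2.35), Srsf5 (2.07), Srsf4 (1.91), Srsf10 (1.86) and Srsf11 (1.86). Srsf9 was the lowest at 1.15 ± 0.51 (adjusted p = 0.043), with 2.53%, 1.99%, 6.67% and 4.44% new RNA in the nucleus and 2.13%, 1.56%, 1.72% and 1.68% in the cytosol. Its nuclear value of replicate 2 lay below the cytosolic value of replicate 1, and the call was lost in 5 of 8 alternatives, among them those without replicate 2 (1.31), 3 (0.78) or 4 (1.05). The family's median log2 ratio was 2.21 against 1.52 over all genes.

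**Figure D2:**
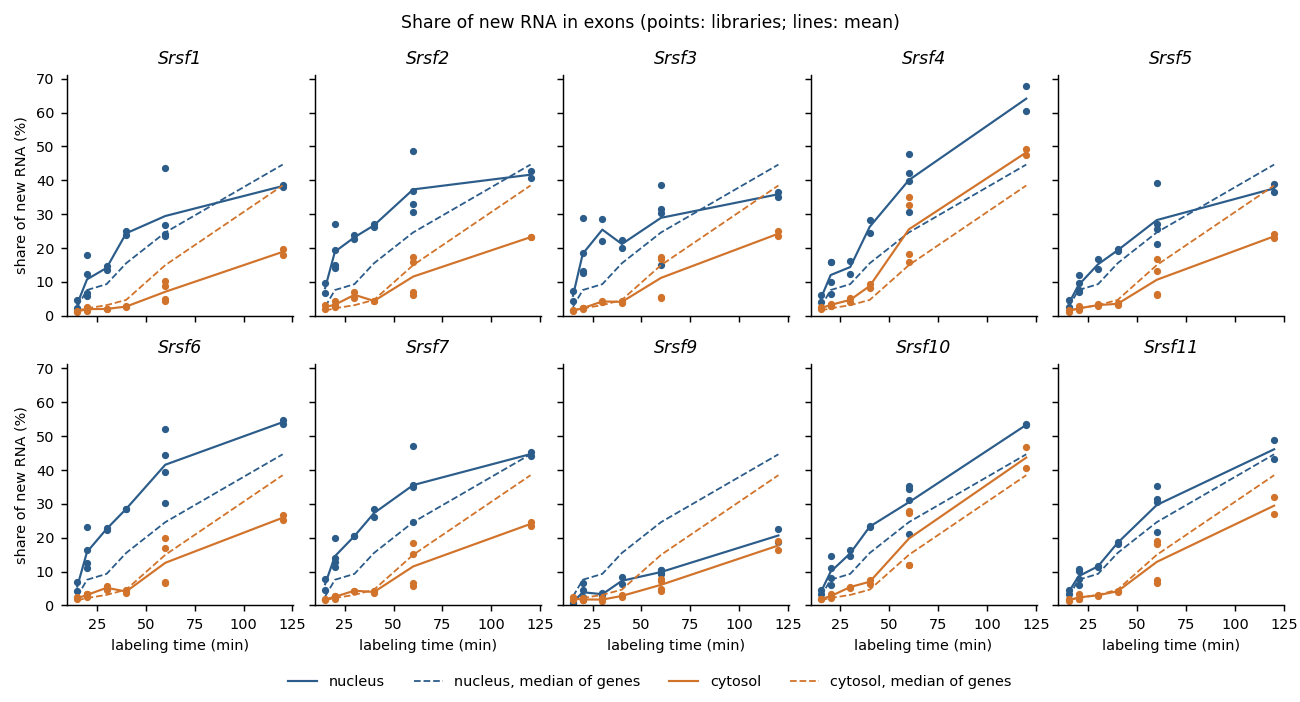
Share of new RNA (%) in the exons of each SR gene against labeling time (min) in the nucleus and cytosol, with a point per library, solid lines at the mean and dashed lines at the mean over libraries of the median gene. Srsf9 stays below the median gene in both fractions, and Srsf4 and Srsf10 lie above it in the cytosol at 120 min.

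Set against the median gene of the same library, 5 SR genes were labeled faster in the nucleus at 20 min and 1 slower. The log2 ratio to the median gene was 1.34 ± 0.17 for Srsf2, 1.25 ± 0.16 for Srsf3, 1.07 ± 0.16 for Srsf6, 0.97 ± 0.21 for Srsf7 and 0.64 ± 0.15 for Srsf4 (limma, adjusted p between 0.0039 and 0.021). Srsf9 was at -1.03 ± 0.19 (adjusted p = 0.0095). Of 13748 genes tested, 25.3% were called higher and 24.1% lower, so that 5 of 10 is above and 1 of 10 below the background. Srsf1, Srsf10, Srsf5 and Srsf11 had values of 0.42, 0.38, 0.29 and 0.21 and were not called. Without replicate 2 the calls of Srsf7 and Srsf4 were lost, and without replicate 4 that of Srsf4. With 5 T2C counts added in place of 0.5 the call of Srsf4 was also lost (0.25), the family's median fell from 0.53 to 0.13, and Srsf5, Srsf10 and Srsf11 turned negative (-0.12, -0.03 and -0.19).

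In whole cells at 60 min, Srsf4 was labeled faster than the median gene and Srsf9 slower. Srsf4 had new shares of 22.5% and 24.9% in replicates 3 and 4 and of 43.6% and 58.1% in replicates 5 and 6, where the median gene had 11.6%, 12.3%, 22.3% and 39.1%. Srsf4 exceeded the median gene in each library, by 0.89 ± 0.13 on the log2 scale (adjusted p = 0.0027). Srsf9 had 5.00%, 4.55%, 6.10% and 17.5% and was lower in each library, by -1.40 ± 0.16 (adjusted p = 0.0017). The shares of replicates 5 and 6 were above those of replicates 3 and 4 for both genes and for the median gene. In whole cells of replicate 6 the median gene stood at 39.1% at 60 min but at 18.2% at 120 min. In replicate 5 it rose from 22.3% to 40.8%. The 60 min library of replicate 6 is thus out of order with its 120 min library, and the cause was not tested. Both calls were kept without replicate 6. Of 13435 genes 28.5% were called higher and 28.3% lower, so that 1 of 10 in each direction is below the background. Srsf2, Srsf3, Srsf6 and Srsf7, which stood above the median gene in the nucleus at 20 min, were at 0.17, -0.42, 0.42 and 0.07 here, and none of these passed. Srsf3 was called lower without replicate 5 (-0.61) and with 5 T2C counts added (-0.55).

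By 120 min (replicates 5 and 6) the order within the family had spread out. Srsf4 mRNA was new to 67.9% and 60.3% in the nucleus and to 47.4% and 49.1% in the cytosol. Srsf10 followed with 53.5% and 53.2% in the nucleus and 40.5% and 46.9% in the cytosol. Srsf9 was new to only 22.6% and 18.7% in the nucleus and 16.5% and 18.9% in the cytosol, and its fractions overlapped. The median gene reached 44.7% in the nucleus and 38.5% in the cytosol. Srsf2, Srsf3, Srsf5 and Srsf7 reached means of 23.2%, 24.2%, 23.5% and 24.1% in the cytosol, close to each other and below Srsf4 and Srsf10 in both replicates.

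No SR mRNA passed the test of membrane against cytosol for the new share at 60 min in replicates 3 to 6. Of the 10 genes 0 were called by edgeR, 0 by limma and 0 passed at an unadjusted p under 0.05, where 0.016% of 12522 genes were called higher and 5.68% lower. The log2 ratios lay between -0.30 for Srsf9 and 0.33 for Srsf11, each with a standard error between 0.31 and 0.38. With the replicate as a block 0 of 10 were called again, but 8 ratios were positive against 5 without it, and 4 had an unadjusted p under 0.05, Srsf11 (0.44, adjusted p = 0.030), Srsf4 (0.33), Srsf6 (0.29) and Srsf10 (0.27). Srsf11 missed on size alone there, and over all genes the block moved the calls from 2 higher and 711 lower to 212 and 1212. The replicates were not alike. Within replicates 3 and 4 all 10 ratios were positive, and Srsf11 (0.76), Srsf6 (0.58) and Srsf10 (0.57) were called higher in the membrane fraction. Within replicates 5 and 6, 8 of 10 were negative and none was called, with 2 at an unadjusted p under 0.05.

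Introns of SR genes were well represented in nuclear polyadenylated RNA, and to very different degrees. Introns held 105 T counts per 100 exon T counts for Srsf7 in the median nuclear library, 101 for Srsf11, 91.8 for Srsf4, 76.4 for Srsf5, 67.8 for Srsf10 and 53.7 for Srsf3. Srsf2 had 32.0, Srsf6 17.0, Srsf9 14.2 and Srsf1 only 2.73. These ratios also grow with the length of introns, which differs between the genes. Per base, intron T counts were 53.8% of exon T counts for Srsf2, 48.8% for Srsf7, 37.8% for Srsf5, 33.0% for Srsf6 and 29.6% for Srsf10. Srsf1, Srsf11 and Srsf3 lay at 18.4%, 17.2% and 16.9%, and Srsf4 and Srsf9 at 8.02% and 3.48%. Srsf2 and Srsf7 thus had the densest intron signal and Srsf9 the thinnest.

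All 10 genes held more intron relative to exon in the nucleus than in the cytosol, where 78.1% of 15246 genes were called higher and 0.728% lower. The log2 ratio was 4.31 ± 0.44 for Srsf1 (adjusted p = 1.5e-07), 3.17 ± 0.40 for Srsf2, 2.99 ± 0.44 for Srsf3, 2.60 ± 0.43 for Srsf7, 2.45 ± 0.38 for Srsf6, 2.40 ± 0.35 for Srsf9, 1.95 ± 0.36 for Srsf5, 1.86 ± 0.38 for Srsf4 and 1.84 ± 0.44 for Srsf11. Srsf1 introns, at 0.778 over 2.73 to 4.31 T counts per 100 exon T counts in the nucleus, were at 0.0440 over 0.112 to 0.214 in the cytosol, with no overlap. Srsf10 was the exception in size. It kept 29.8 intron T counts per 100 exon T counts in the median cytosolic library, the most of the family, and its log2 ratio was 0.84 ± 0.35 (adjusted p = 0.032), a call that was lost without replicate 2 (0.88), 3 (0.61), 4 (0.74) or 5 (0.84). Srsf4, Srsf5 and Srsf11 kept 20.1, 19.9 and 17.1 in the cytosol. The median log2 ratio was 2.42 in the family and 1.92 over all genes.

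**Figure D3:**
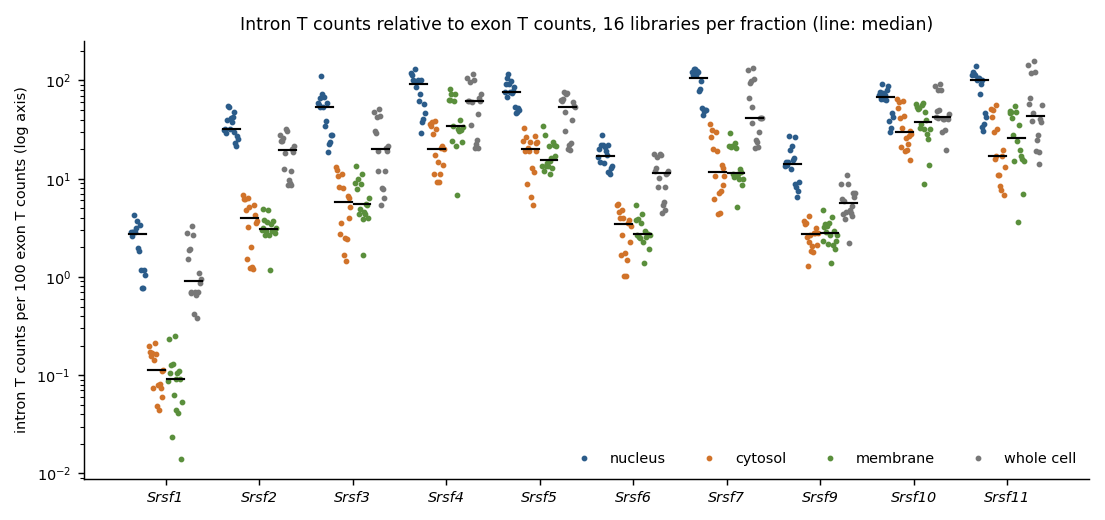
Intron T counts per 100 exon T counts (log axis) of the 10 SR genes by fraction, with a point per library and a line at the median of 16 libraries. Srsf1 introns are the rarest, and the gap between nucleus and cytosol is smallest for Srsf10.

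The introns of 6 SR genes were measurably newer than their exons early on, while those of Srsf4, Srsf6, Srsf10 and Srsf11 were not. In the nucleus at 20 min, intron RNA of Srsf2 was 42.2% new against 18.9% of its exon RNA, and introns of Srsf3 and Srsf7 were 42.9% and 34.0% new. For Srsf10 the introns were 4.72%, 7.93%, 13.1% and 10.7% new in replicates 1 to 4 and the exons 6.004%, 8.12%, 14.6% and 11.2%. The intron was the lower of both in every replicate of Srsf10, while for Srsf6 the introns (11.6%, 11.8%, 21.7% and 16.7%) lay on either side of the exons (11.0%, 12.5%, 23.2% and 16.5%). The median gene had 30.4% new intron RNA and 7.59% new exon RNA.

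In the test of intron against exon share, 6 of 10 SR genes were called higher in introns, where 85.3% of 11282 genes were. These were Srsf9 (2.89 ± 0.54), Srsf1 (1.38 ± 0.36), Srsf3 (1.23 ± 0.33), Srsf7 (1.22 ± 0.33), Srsf2 (1.16 ± 0.32) and Srsf5 (0.92 ± 0.35). Srsf5 lost its call without replicate 2 (0.90) or 4 (0.98). Srsf4 (0.67 ± 0.39) and Srsf11 (0.53 ± 0.36) did not pass, and with the replicate as a block Srsf4 was called (7 of 10). Srsf6 (-0.03 ± 0.33) and Srsf10 (-0.13 ± 0.35) stood at the 1.8th and 1.5th percentile of all genes tested. The family's median was 1.04 against 2.05 over all genes.

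Srsf10 introns had the lowest mean nuclear share of the family at 60 and 120 min. At 60 min Srsf10 introns were 39.1%, 25.8%, 49.2% and 43.1% new in the nucleus and 34.1%, 29.9%, 47.7% and 43.0% in the cytosol, where the median gene had 86.2% in the nucleus. By 120 min they had reached 76.8% and 73.5% in the nucleus. Srsf6 introns were 67.9%, 47.0%, 66.0% and 64.4% new in the nucleus at 60 min and 89.6% and 86.5% at 120 min, and in the cytosol at 120 min they were at 103% in both replicates. Srsf5 introns (77.0% and 77.3%) and Srsf9 introns (79.0% and 78.6%) were also below the median gene, at 93.5%. Srsf3 introns were 98.9% and 95.7% new by 40 min, and those of Srsf2 and Srsf7 were at a mean of 96.0% and 95.6% by 120 min.

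**Figure D4:**
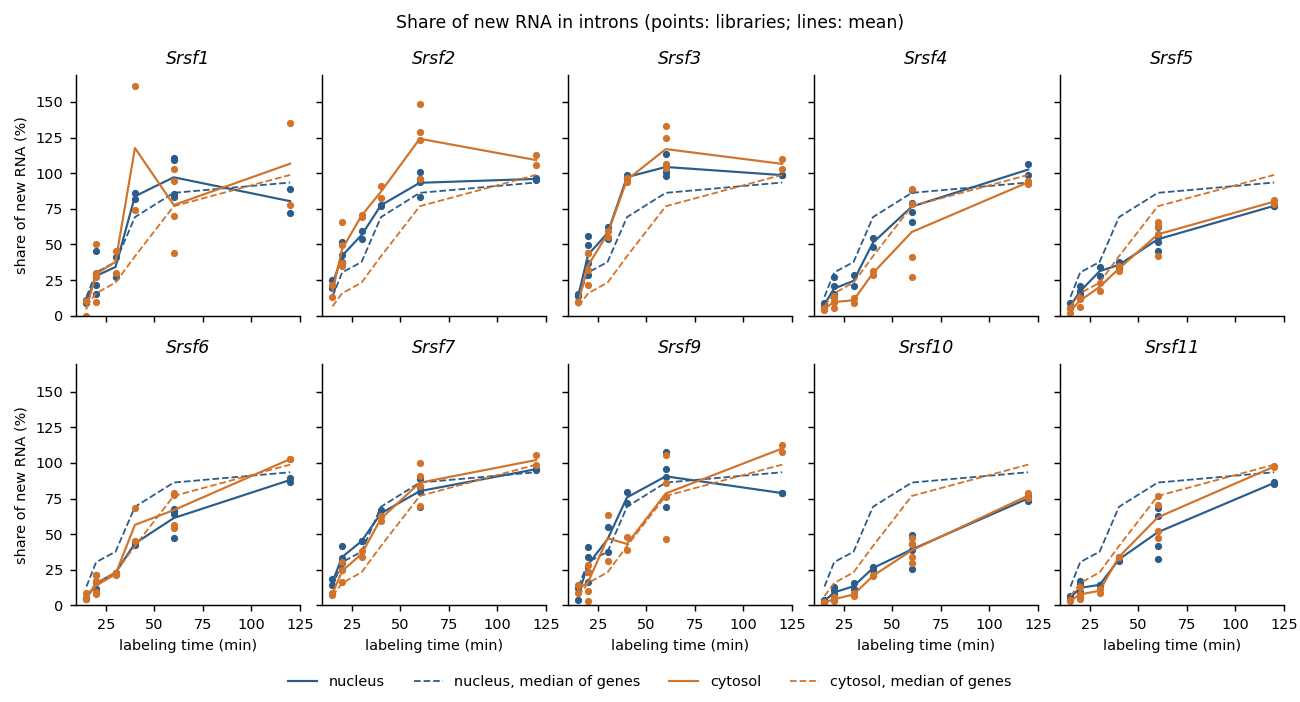
Share of new RNA (%) in the introns of each SR gene against labeling time (min), with a point per library, solid lines at the mean and dashed lines at the mean over libraries of the median gene. Srsf10, Srsf11, Srsf5 and Srsf6 run below the median gene in the nucleus at 20 to 60 min, and Srsf2 and Srsf3 run above it.

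Single exons were then compared within their gene. The deposited tables held 83 exon rows for the 10 genes, and all were tested for T counts relative to the other rows of the gene between nucleus and cytosol. Nonsense-mediated decay transcripts are annotated for 9 of the 10 genes (all but Srsf10), yet no row was annotated in such transcripts alone, so that an exon found only in such transcripts had no row of its own. A row annotated only in processed transcripts, the first of Srsf3 at chr17:29032689-29032786, was at -0.20 (adjusted p = 0.25). Low rows, with under 20% of the median T count per base of their gene in the nucleus, numbered 6. They were the first exons of Srsf1, Srsf4, Srsf10 and Srsf11, the Srsf6 poison exon and a row of Srsf2.

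The low row of Srsf2 lies at chr11:116851648-116851751 of GRCm38 on the minus strand (ENSMUSE00001072738, 104 bases), downstream of the stop codon at 116852028 to 116852030. It is noncoding in both transcripts that hold it, of which ENSMUST00000136914.7 is annotated as a target of nonsense-mediated decay. Unlike the Srsf6 exon it brings in no new stop, and both are called poison exons below for short.

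T counts on both poison exons, relative to the other rows, were far higher in nuclear than in cytosolic RNA. Reads from RNA that keeps an intron across these exons are counted with them. T counts of the Srsf6 exon were 0.436% over 0.717% to 1.44% of those of the other rows in nuclear libraries and 0.0430% over 0.188% to 0.334% in cytosolic ones. For the Srsf2 exon they were 0.177% over 0.273% to 0.563% and 0.0292% over 0.0758% to 0.115%. No nuclear library overlapped a cytosolic one for either exon. On the log2 scale the nucleus exceeded the cytosol by 2.12 ± 0.30 for Srsf6 (adjusted p = 0.00047) and 2.09 ± 0.20 for Srsf2 (adjusted p = 2.9e-05), and both kept their calls under each of 11 alternatives, with values between 1.76 and 2.35 for Srsf6 and between 1.86 and 2.25 for Srsf2. They lie at the 99.7th (Srsf6) and 99.6th (Srsf2) percentile of 162848 rows, of which 2.4% were called higher and 10.5% lower.

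Most other called rows moved the opposite way. Of 83 rows 4 were called higher in the nucleus and 17 lower. The other higher rows were the 3′ row of Srsf10 at chr4:135863729-135865815 (0.79) and the last row of Srsf6 at chr2:162934412-162937121 (0.53), both long rows that hold the stop codon. The lowest were Srsf10 exon 2, the sequence of which is given above (-1.45 ± 0.22), the Srsf11 exon given above (-1.18 ± 0.16) and Srsf10 exon 1 (-1.10 ± 0.20). The first exons of Srsf11 (-0.87 ± 0.13) and Srsf4 (-0.85 ± 0.13) were also called lower, and that of Srsf1 (-0.13 ± 0.11) was not called. Rows called lower lay at a median of 34.7% of the gene length from the 5′ end, and rows not called at 55.1%. The median over the family's rows was -0.20 and that over all rows -0.17.

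Cytosolic reads on a poison exon, from whichever transcripts, had a larger new share at 60 min than those on the other rows of the gene. In the cytosol at that time, new shares of the Srsf2 exon were 76.5%, 89.7%, 118% and 88.0% in replicates 3 to 6, and those of the other Srsf2 rows 7.60%, 6.54%, 18.2% and 16.5%. The exon was several times newer in each library, with a log2 ratio of 3.13 ± 0.24 (edgeR with the library as a block, adjusted p = 3.2e-05). For the Srsf6 exon the cytosolic values were 93.5%, 57.4%, 53.3% and 59.1% against 6.76%, 6.50%, 19.4% and 16.4%, with a log2 ratio of 2.65 ± 0.34 (adjusted p = 0.0016). These shares rest on few conversions, 78 T2C counts for the Srsf2 exon and 72 for the Srsf6 exon over the 4 libraries.

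In the nucleus at 60 min the Srsf2 exon was 102%, 93.2%, 83.4% and 90.2% new against 49.9%, 32.6%, 38.6% and 34.2% of its other rows, a log2 ratio of 1.26 ± 0.10 (adjusted p = 0.00094, 542 T2C counts). The Srsf6 exon was 61.8%, 59.4%, 44.3% and 67.7% new against 51.6%, 29.7%, 43.7% and 38.4%, and its ratio of 0.56 ± 0.15 did not pass (adjusted p = 0.059). Values were higher for the exon in each of these libraries, by little in replicate 5 of Srsf6. Of the 83 family rows 3 were called higher and 22 lower in the nucleus, where 2.17% of 130415 rows were called higher and 5.59% lower, and 4 higher and 11 lower in the cytosol, where 0.872% of 121152 rows were called higher and 1.34% lower. Srsf10 exon 1 and exon 2 were among the lower rows in the cytosol, at -1.54 ± 0.23 and -1.34 ± 0.16. Limma on log2 shares called 0 rows of any gene in either fraction, with adjusted p of 0.090 for Srsf2 and 0.11 for Srsf6 in the cytosol, so that these calls rest on the count model.

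At shorter times the Srsf6 exon was not newer throughout. In the nucleus its mean share was 0.958% at 15 min, 10.1% at 20 min and 14.5% at 30 min, below the 5.50%, 15.6% and 22.3% of its other rows, and it lay above them from 40 min on (32.5% against 27.8%). In the cytosol it was below them at 15 and 30 min (1.32% against 2.03% and 3.96% against 5.01%) and above at 20 min (6.29% against 3.01%), on 1, 3 and 7 T2C counts. The mean share of the Srsf2 exon exceeded that of its other rows at every time in both fractions, from 9.66% against 8.07% in the nucleus at 15 min. These shorter times were not tested.

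Intron RNA was measured beside these exons. Between nucleus and cytosol the introns shifted by 3.17 (Srsf2) and 2.45 (Srsf6) on the log2 scale, above the 2.09 and 2.12 of the exons. Per base, T counts of the Srsf2 exon were 13.2% of those of the gene's introns in the nucleus and 28.7% in the cytosol, and those of the Srsf6 exon 55.9% and 72.8%. Intron shares at 60 min in the cytosol were 123%, 96.3%, 148% and 129% for Srsf2 and 54.2%, 56.6%, 79.0% and 77.8% for Srsf6, again far above those of the other exon rows. Reads on these exons from transcripts that keep an intron across them cannot be told apart from spliced poison exons in these tables, and their part in the result was not tested.

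**Figure D5:**
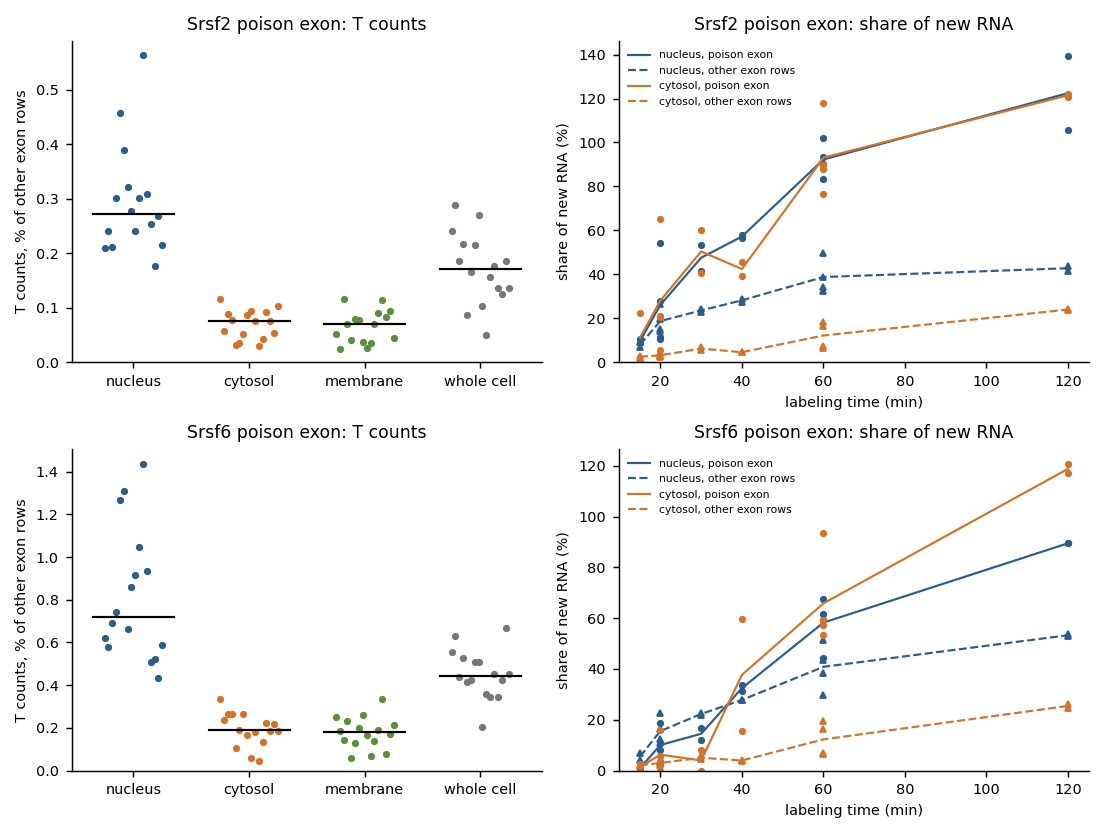
Left, T counts of the Srsf2 and Srsf6 poison exons as % of the other exon rows of the gene in each library of 4 fractions, with a line at the median of 16. Right, share of new RNA (%) of the exon (solid lines at the mean, circles) and of the other rows (dashed lines, triangles) against labeling time (min) in the nucleus and cytosol. Nuclear libraries lie above cytosolic ones on the left, and from 40 min on the cytosolic exon lies above the other rows on the right.

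Within replicates 3 and 4, nuclear levels at 120 min were set against those at 20 min. The question was whether SR mRNAs changed while 4sU was present. These 120 min libraries are the ones set aside by the authors, and the methods, unlike the labels, imply 500 µM of 4sU for them. The paper excluded labeling at that dose beyond 60 min, because genes were differentially expressed in whole cells from 120 min on. The part of the dose in the changes below was not tested. Srsf11 fell, from 152 and 113 RPKM to 73.5 and 53.9, a log2 fold change of -0.92 ± 0.21 (adjusted p = 0.032). It was the single called member, lower where 1.35% of 17810 genes were called lower and 1.56% higher. The value was lower at 120 min in both replicates. Srsf10 (-0.83), Srsf7 (-0.72) and Srsf2 (-0.56) did not pass, though each of them was called with the replicate as a block (4 of 10 in all). Srsf6 and Srsf5 were at -0.45 and -0.41, and Srsf9 at 0.49. The median was -0.43 in the family and 0.02 over all genes. Nuclear libraries of replicates 5 and 6 at 120 min had 60.2 and 59.8 for Srsf11. These replicates have no 20 min library, and their 60 and 120 min libraries summed to 183 and 201 CPM. Replicates 3 and 4, summed without 120 min, had 368 and 301 CPM. A fall with time in replicates 5 and 6 was not tested.

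In whole cells the same contrast gave smaller values, and 0 of 10 SR genes were called by edgeR or DESeq2 and 0 passed at an unadjusted p under 0.05. The values lay between -0.43 ± 0.26 for Srsf10 and 0.07 ± 0.16 for Srsf9. Of 16858 genes 0.0712% were called higher and 0.0415% lower. The intron to exon ratio in the nucleus was lower at 120 min for 9 of 10 members, from -0.99 ± 0.42 for Srsf11 and -0.98 ± 0.44 for Srsf3 to -0.16 for Srsf10, with Srsf9 at 0.14. None of these was called, as 0 of 14154 genes (0%) were by edgeR or limma, while 2221 genes and 3 members had an unadjusted p under 0.05 in edgeR. The median was -0.55 in the family and -0.42 over all genes. Without replicate 3, 5 members were called lower (Srsf2, Srsf3, Srsf5, Srsf7 and Srsf11), and without replicate 4 the number was 4 (Srsf3, Srsf4, Srsf7 and Srsf11), with the lone 20 and 120 min libraries assumed to vary like the other groups. Over all genes 1466 of 14403 were called lower without replicate 3 and 3389 of 14256 without replicate 4, with medians of -0.26 and -0.56 against -0.70 and -0.52 in the family.

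Over the 64 libraries, 9 of the 10 members followed the family's mean profile of centred log2 CPM, with Pearson r between 0.68 (Srsf3) and 0.98 (Srsf2), while Srsf9 had an r of 0.16. Each member is itself a part of that mean. Among 11481 other genes with at least 10 counts in every library, the profiles most like it were those of Tra2a (r = 0.958), an SR-like splicing activator, Hnrnpa2b1 (0.957), an hnRNP protein, Pus7 (0.952), a pseudouridine synthase, Cep57 (0.950), a centrosomal protein, and Eif5 (0.949), a translation initiation factor. The points share fractions, replicates and libraries.

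The 38 other genes of the splicing and decay list (SR-related proteins, SR protein kinases, spliceosome and hnRNP proteins and decay factors) were tested in the same fits. Of these 14 were called higher in the nucleus than in the cytosol and 5 lower, close to the shares over all genes (37.5% and 18.9%), and without replicate 4 the numbers were 7 and 7. The higher ones were led by Rsrp1 (1.99 ± 0.21), an SR-related protein, Clk1 (1.79 ± 0.24), a kinase of SR proteins, and Son (1.67 ± 0.26), a speckle protein. In the membrane fraction 16 were called lower and none higher, where 9.12% and 21.1% of all genes were, among them Srrm2 (-0.995), Upf3b (-0.86) and Hnrnpa1 (-0.84), and in the 20 min libraries alone the number was 7. The new share at 20 min was called higher in the nucleus for 33 of 37 (55.9% of all genes), and 35 of 38 had a higher new share in introns than in exons (85.3% of all genes), with a median of 2.17 against 2.05. Relative to the median gene 5 were called higher and 12 lower in the nucleus at 20 min, with Snrnp70 the lowest at -1.45, where 25.3% of all genes were called higher and 24.1% lower. These counts were not stable, at 10 and 8 against the mean over genes, 0 and 17 with 5 T2C counts added, and 3 and 6, 2 and 2, 5 and 5, and 2 and 3 without replicates 1 to 4 in turn. In whole cells at 60 min 13 were called higher and 9 lower (28.5% and 28.3% of all genes), with Clk4 (1.62) and Clk1 (1.57) on top, and with 5 T2C counts added the numbers were 8 and 14.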

How the data were processed

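RNA of 4 fractions of E14TG2a cells was measured by SLAM-seq in 72 libraries. The authors aligned reads with STAR 2.7.6 to mm10 (GRCm38, Gencode M14) and deposited raw read counts per gene made with HTSeq 0.11.1, without normalization. For each exon row, and for all introns of a gene together, the authors tallied T positions and T2C mutations outside known variant sites and deposited these tallies as raw counts. Each library has a conversion rate, deposited as a fraction and estimated by fitting a mixture of binomials. The share of new RNA, deposited as a ratio, is T2C over T over that rate, without background subtraction, and was recomputed here from the counts.

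Exons of a gene had to hold at least 400 T counts in every library for shares, as had introns where these were tested. Single exon rows had to hold 400 T counts only in the sum over the libraries of a test. Intron and exon row T counts were divided by 25, near the Ts of a read. Read levels were tested by the quasi-likelihood test of edgeR 4.0.16 (R 4.3.3, TMM, genes kept by filterByExpr), shares and intron ratios with offsets in the same model, and shares relative to the median gene with limma 3.58.1 after adding 0.5 T2C counts. P-values were adjusted over all features by Benjamini-Hochberg. DESeq2 1.42.0 was an alternative, and fits were checked on simulated counts. Counts of a replicate were summed over labeling times for levels, since its libraries were taken to share a passage. Levels per length used the union of the deposited exon rows. Python 3.11.15 was used for tables.

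Samples were grouped by the labels. Replicate numbers paired the samples: same-numbered libraries were taken to come from the same passage, which neither the labels nor the paper state. Deviations of same-numbered fractions from the fraction means correlated with r between 0.187 and 0.685 in levels. The r lay between 0.163 and 0.207 in the 60 min shares of membrane and cytosol. In the 20 min shares of nucleus and cytosol it lay only between 0.00870 and 0.0773. In nuclear and cytosolic levels, replicates 3 (0.187) and 6 (0.358) correlated more with another number (0.293 and 0.421). Replicate 3 did so in the 20 min shares as well (0.00870 against 0.0500). Members and gene lists, and the rule for named genes, were chosen with earlier results of these data known. The rule names all SR genes, the 3 called list genes with the largest change, low exon rows and the 5 most similar profiles. The test of new shares of exon rows was added after seeing the data. Exon rows of a gene can overlap, so neighbouring rows are not independent. Reads that do not lie on a gene (30.4% to 48.8% of a library) were left out, and T counts are not independent molecules.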

Additional observations from a re-analysis of the deposited data

Results flagged for a closer look

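Of 114 groups of 4 to 6 values checked for a sample far from the others, 5 were flagged, and chance flags about 1 in 20. Srsf7 in the cytosol was highest in replicate 3, at 591 CPM over the summed labeling times, with the next replicate at 428. Srsf4 in the membrane fraction was highest in replicate 4, at 99.9 CPM against 75.1 for the next. The new share of Srsf6 exons in the cytosol at 20 min was lowest in replicate 3, at 2.40% against 3.27%. The new share of Srsf9 in whole cells at 60 min was highest in replicate 6, at 17.5% against 6.10%. The share of the median gene was also highest in that library, at 39.1%. The Srsf6 poison exon had 93.5% new RNA in the cytosol at 60 min in replicate 3, against 59.1% in the next replicate, with 15 T2C counts behind it.

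The membrane to cytosol ratio of new shares at 60 min had opposite signs in replicates 3 and 4 (positive) and replicates 5 and 6 (negative) for 5 genes. The log2 difference between these pairs was 0.33 for Srsf1, 0.66 for Srsf2, 0.53 for Srsf3, 0.50 for Srsf5 and 0.61 for Srsf10. The pairs differ in their conversion rates, and the difference between them was not tested.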

How the results depend on the processing

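Of 1074 values of single members or low exon rows under the alternatives, 1011 kept their side of the threshold and their direction, 24 lost and 39 gained a call, and 0 called values reversed. Nuclear against cytosolic levels gave 6 called members in the 20 min libraries alone (2 in the report), and membrane against cytosolic new shares 3 in replicates 3 and 4 alone (0). Nuclear levels at 120 against 20 min gave 4 with the replicate block, 3 with DESeq2 and 4 without the filter on low counts (1). The intron ratio of the same contrast gave 4 to 5 when replicate 3 or 4 was left out (0). New shares of exon rows in the nucleus gave 8 rows with no replicate block, 0 with limma, 0 in replicates 3 and 4 alone and 11 to 24 with a replicate left out (25), and in the cytosol 2 with no replicate block and 0 with limma (15). The causes were not tested. The block changed no member call beyond those named here and in the report. With 2 replicates at most times and few T2C counts in poison exons (72 and 78 in the cytosol at 60 min), small differences of shares were not detectable.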
